A study of Homo sapiens with 26 samples.

Results

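Genes of the lysosome other than cathepsins were followed across 9 breast cancer cell lines that differ in the compartment to which the kinase AURKA was directed. The 37 genes were taken by symbol from a table of 33562 rows, and all 37 were found. By role they are 22 hydrolases or hydrolase activators, 8 membrane proteins, channels or lipid transfer proteins, 5 subunits of the proton pump and 2 transcription factors. Levels are in RPKM, reads per kilobase of transcript scaled to the mapped reads of each library, so levels of different genes can be compared per length. The genes that reached 1 RPKM in at least 2 libraries were tested, which holds for 35 of the 37 and for 12589 rows in all. The sulfatase ARSA and the transcription factor TFEB did not reach 1 RPKM in any library and were described only.

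The 26 libraries were made from MDA-MB-231Luc cells, derived from MDA-MB-231, a cell line of human breast cancer that lacks hormone receptors and HER2 amplification, and all lines carried the pLUTZ mRFP vector and grew in doxycycline at 0.1 to 1 mg/ml under normoxia. The AURKA lines were clones made with a guide against AURKA together with AURKA cDNA, at passages 32 to 35. NLS-AURKA (clones c2 and c3, guide sgAURKA1, cDNA labelled MUT1) carries a nuclear localization signal, NES-AURKA (clones c1 and c2, guide sgAURKA2, cDNA labelled MUT2) carries a nuclear export signal, and WT-AURKA (clones c1 and c2, guide sgAURKA2, cDNA labelled MUT2) carries no added signal. The 3 control lines, NLS-Empty, NES-Empty and Empty, carried the vector with the same signal or none but no AURKA cDNA, with the guide sgCon, at passages 19 to 20. WT-AURKA c2 has 2 libraries and every other line has 3. Guide, passage and clonal derivation cannot be told apart from the AURKA cDNA in comparisons with the control lines, and guide and cDNA label cannot be told apart from the nuclear signal. No label says whether the libraries of a line are separate cultures, so p-values between single lines measure only the spread between libraries, which may be technical.

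The lysosome is an acidic compartment in which proteins, lipids, glycans and glycosaminoglycans delivered by endocytosis and autophagy are broken down. A rotary proton pump, the V-ATPase, keeps its lumen acidic, heavily glycosylated proteins such as LAMP1 and LAMP2 line its membrane, and channels and lipid transfer proteins release calcium and cholesterol. TFEB and its relative TFE3 bind a short E-box sequence, the CLEAR element, in promoters of many lysosomal genes, and loss of single hydrolases causes lysosomal storage disease in humans.

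Promoter sequence was given for 26 of the 37 genes in the RefSeq table (build GRCh38.p14, in windows that span each gene start). TCACGTG, or its reverse complement CACGTGA, which holds the E-box core CACGTG and is part of the CLEAR element, was found in 7 of the 26: LAMP1, GAA, NEU1, ARSB, MCOLN1, ATP6V0D1 and CLN3. Of all 27305 genes with a window, 4.49% held it on either strand. The shorter CACGTG, which every TCACGTG contains, was in 8 of the 26, the same genes and CD63, and in 8.77% of all genes with a window. The stretches around the first match are shown for the 5 of these genes that differed in a comparison of lines, 5′ to 3′ on the gene's strand and ending before the gene start, with each match in capitals, as a description and not as evidence of binding.
MCOLN1: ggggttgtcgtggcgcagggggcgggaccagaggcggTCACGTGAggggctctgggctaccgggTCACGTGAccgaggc
LAMP1: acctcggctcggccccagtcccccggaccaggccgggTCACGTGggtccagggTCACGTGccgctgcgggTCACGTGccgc
CLN3: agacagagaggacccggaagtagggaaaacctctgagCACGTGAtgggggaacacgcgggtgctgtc
ATP6V0D1: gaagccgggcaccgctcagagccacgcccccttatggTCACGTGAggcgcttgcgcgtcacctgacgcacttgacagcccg
NEU1: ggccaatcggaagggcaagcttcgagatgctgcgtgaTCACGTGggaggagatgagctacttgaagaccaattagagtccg

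The MCOLN1 stretch lies at chr19:7522545-7522623, plus strand, that of LAMP1 at chr13:113297009-113297089, plus strand and that of CLN3 at chr16:28492075-28492141, minus strand. Those of ATP6V0D1 and NEU1 lie at chr16:67481174-67481254, minus strand, and at chr6:31862905-31862985, minus strand. The first match began 42 bases before the start of MCOLN1, 193 before LAMP1, 30 before CLN3, 60 before ATP6V0D1 and 127 before NEU1. The LAMP1 window held 6 matches, those of MCOLN1 and CLN3 2 each. Of these genes MCOLN1 rose and CLN3 fell in NLS-AURKA against both NES-AURKA and WT-AURKA, LAMP1 and ATP6V0D1 fell in NLS-AURKA against WT-AURKA and were not called against NES-AURKA, and NEU1 fell in AURKA against control lines.

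The titles letter the libraries, and 8 of them, A to H (the A-H set), differed as a set from the other 18 (the I-Z set). The nuclear RNA MALAT1 was at 175 to 561 against 6.10 to 33.5 RPKM. Values within the I-Z or the A-H set are therefore given beside the pooled ones for many genes, but not for all. Each line but WT-AURKA c2 has 1 library in the A-H set. Depth was estimated from the low values at 17800000 to 21400000 reads in the A-H libraries and 12900000 to 17800000 in the others, so 1 RPKM over a kilobase stands for 12.9 to 21.4 reads. Of the A-H libraries, A (NES-AURKA c2) followed the I-Z profile of its own line least, with a correlation across 7743 genes of 0.104, its highest being 0.185 with NLS-AURKA c2, while the others had 0.483 to 0.827. Libraries E and C correlated most with NLS-Empty, at 0.742 and 0.776, against 0.729 and 0.728 with their own lines, Empty and NES-Empty. Library H (NLS-AURKA c2) correlated most with NLS-AURKA c3, at 0.795, against 0.657 with its own line. AURKA itself was at 84.1 RPKM in library D of WT-AURKA c1, against 14.1 and 12.8 RPKM in its other libraries, and over all AURKA lines at 12.7 to 105 RPKM, against 34.0 to 68.9 RPKM in control lines. Reads of the gene and of the cDNA cannot be told apart in that row. By construct, AURKA averaged 59.2 RPKM in NLS-AURKA, 28.2 RPKM in NES-AURKA and 25.3 RPKM in WT-AURKA, against 57.0 RPKM in control lines. The part of this AURKA level in the differences between constructs was not tested. Summed markers of macrophages and leukocytes reached 1.29 RPKM in AURKA and 0.840 RPKM in control libraries, with ITGAM, AIF1 and CD3E at no more than 0.1 RPKM in every library. The hormone receptors ESR1 and PGR were likewise at no more than 0.1 RPKM throughout, and the summed luminal markers lay at 197 to 522 RPKM in AURKA and 313 to 453 RPKM in control libraries. Summed fibroblast markers lay at 0.231 to 1.64 RPKM in AURKA and 0.447 to 1.83 RPKM in control libraries, endothelial markers at 0.547 to 4.59 RPKM in AURKA and 0.536 to 0.941 RPKM in control libraries and markers of mesenchymal breast cancer lines at 574 to 1956 RPKM in AURKA and 686 to 1159 RPKM in control libraries.

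Per length, the most abundant RNA among the 37 was PSAP, the precursor of the saposins that help hydrolases reach their lipids, at 339 RPKM as the mean of the 9 lines. CD63, a tetraspanin of late endosomes and lysosomes, followed at 137 RPKM, and NPC2, which hands cholesterol to NPC1 in the lumen, at 53.9 RPKM. At the low end ARSA was at 0.236 and TFEB at 0.381 RPKM, while TFE3 was at 14.7 RPKM. An F test over the 9 lines (limma on 26 libraries) called 17 of the 35 tested genes at an adjusted p under 0.05, against 31.6% of all genes. Within the I-Z libraries it called 32, where 75.8% of all genes were called. In RNA from bulk cells, fewer cells with a transcript and less of it per cell cannot be told apart.

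Of the 35 tested genes, the proton pump subunits ATP6V1A and ATP6V1H varied least between lines, with the highest line at 1.19 and 1.25 times the lowest. ATP6V1A, the catalytic subunit, ran from 12.6 RPKM in NES-AURKA c2 to 15.0 RPKM in WT-AURKA c1. ATP6V1H, a regulatory subunit, ran from 8.01 RPKM in NLS-AURKA c3 to 10.02 RPKM in WT-AURKA c2. ATP6V0D1, of the membrane sector, ran from 6.18 RPKM in NLS-Empty to 8.86 RPKM in WT-AURKA c2. None of the 3 was called in the F test, with adjusted p of 0.941, 1.00 and 1.00, or in the I-Z libraries alone, with 0.149, 0.256 and 0.176. ATP6V1B2, the other nucleotide-binding subunit, ran from 8.77 RPKM in NES-AURKA c2 to 15.1 RPKM in NES-Empty and was called in the I-Z libraries (adjusted p = 7.74e-05), but not in all 26 (adjusted p = 0.597). WT-AURKA c2 has no A-H library, so its mean is not like those of the other lines. In the I-Z libraries alone line means ran from 9.06 to 11.04 RPKM in ATP6V1H and from 7.07 to 9.04 RPKM in ATP6V0D1. There WT-AURKA c2 was not the highest line in either gene.

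At the other end, MAN2B1, the lysosomal alpha-mannosidase, had its highest line at 4.18 times the lowest. It ran from 3.46 RPKM in WT-AURKA c2 to 14.5 RPKM in NLS-AURKA c3 (F test, adjusted p = 0.000511). MANBA and IDUA followed, at 3.35 and 3.23 times, with means of 0.989 and 1.00 RPKM. TFE3, at 2.53 times, had a lower ratio than several genes but the lowest adjusted p. It ran from 9.54 RPKM in Empty to 24.1 RPKM in WT-AURKA c1 (F test, adjusted p = 3.28e-06). GLA, the alpha-galactosidase that clears globotriaosylceramide, ran from 4.78 RPKM in NLS-Empty to 14.6 RPKM in WT-AURKA c2 (adjusted p = 0.0291). As WT-AURKA c2 has no A-H library, the I-Z line means are given too. They ran from 2.95 to 13.2 RPKM in MAN2B1 and from 5.83 to 14.7 RPKM in GLA. IDS, a sulfatase of heparan and dermatan sulfate, ran from 14.0 RPKM in NLS-AURKA c3 to 42.7 RPKM in NES-AURKA c1 (adjusted p = 0.00388). Several hydrolases differed between the letter sets in every control line. TPP1, a tripeptidyl peptidase, was at 25.7 to 28.3 RPKM in the A-H libraries of the control lines and at 6.28 to 8.66 RPKM in their I-Z libraries. GAA, which breaks down glycogen, was in these A-H and I-Z control libraries at 9.13 to 14.5 and 2.49 to 4.39 RPKM. PPT1, which removes palmitate from proteins, lay the other way in the A-H and I-Z control libraries, at 15.4 to 17.7 and 28.8 to 31.4 RPKM. In TPP1, GAA and PPT1 no control library of one set lay within the range of the other.

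**Figure D1:**
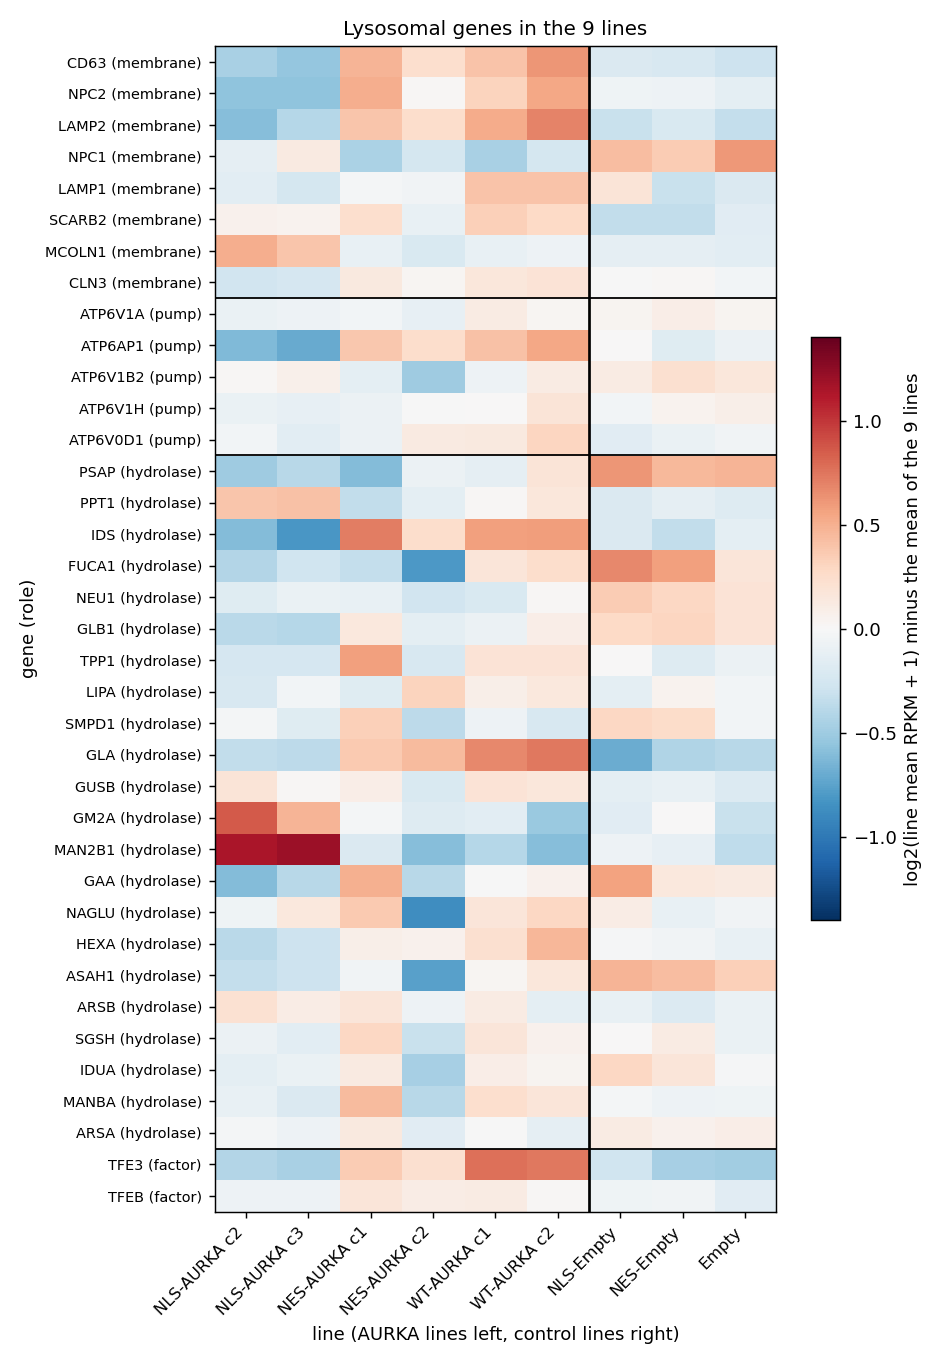
Level of the 37 genes (rows, grouped by role and ordered by mean level) in the 9 lines (columns, AURKA lines left of the vertical line, control lines right), as log2 of the line mean RPKM plus 1 minus the mean of the 9 lines. MAN2B1, GM2A and MCOLN1 are red in both NLS-AURKA clones, and LAMP2, IDS, ATP6AP1 and CD63 are blue there and red in the NES-AURKA and WT-AURKA clones.

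AURKA lines were set against control lines first. Of the 35 genes 5 were called, 1 higher and 4 lower, where 19.2% of all genes were called, 8.85% higher and 10.4% lower. The median log2 difference of the 35 was 0.075, against -0.017 over all genes. Within the I-Z libraries 3 were higher (TPP1, GUSB and SCARB2) and 2 lower (NEU1 and FUCA1), where 17.9% of all genes were called, 7.73% higher and 10.2% lower. Within the A-H libraries 3 were lower (NEU1, PSAP and ASAH1) and 0 higher, where 12.3% of all genes were called. Leaving out a control line lowered the count to 1 without NLS-Empty, 2 without NES-Empty and 3 without Empty, and libraries A and D left out together gave 3. The calls among all genes moved too, from 902 to 3187 over all alternative runs, against 2423 in the fit first given. The lowered counts are therefore not read as a result about the lysosomal genes. Of the luminal markers, EPCAM, an epithelial adhesion protein, was at 1.44 to 3.87 RPKM in AURKA and 7.11 to 15.3 RPKM in control libraries, with no overlap, and CDH1, the epithelial cadherin, at 0 to 0.616 RPKM in AURKA and 0.369 to 15.5 RPKM in control libraries. Each of the other luminal markers overlapped between the arms. Of these KRT8 lay at 28.1 to 104 RPKM in AURKA and 47.7 to 84.6 RPKM in control libraries, and KRT19 at 73.9 to 220 and 132 to 179 RPKM. The part of the luminal markers in the differences between AURKA and control lines was not tested.

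PSAP was at 212, 272 and 367 RPKM (lowest, median and highest) in the 6 AURKA lines, against 498, 444 and 451 RPKM in NLS-Empty, NES-Empty and Empty. The arms did not overlap, and PSAP averaged 277 ± 58.1 and 464 ± 29.2 RPKM (SD, n = 6 and 3 lines), -0.77 in log2 units (SE 0.16, adjusted p = 0.00957 in limma). The size differed between letter sets, at -0.40 in the I-Z libraries (adjusted p = 0.248) and -1.66 in the A-H libraries (adjusted p = 0.00391). Within the I-Z set PSAP reached 474 RPKM in U of NES-AURKA c2, 423 RPKM in O of WT-AURKA c1 and 416 RPKM in R of WT-AURKA c2, above the highest control library of that set, 403 RPKM. The adjusted p was 0.0748 without libraries A and D and 0.0588 without NLS-Empty.

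NPC1, the membrane protein that exports cholesterol, was at 21.3, 24.6 and 32.3 RPKM in the 6 AURKA lines, against 40.1, 37.9 and 45.4 RPKM in NLS-Empty, NES-Empty and Empty. In the pooled means no AURKA line reached the lowest control line. In the I-Z libraries alone NES-AURKA c2 differed from NES-Empty by -0.069 (adjusted p = 0.561 in limma). The other AURKA clones differed there from their matched control lines by -0.29 to -0.98. Between the arms NPC1 differed by -0.71 in log2 units (SE 0.14, adjusted p = 0.00779 in limma). It differed by -0.54 in the I-Z libraries (adjusted p = 0.0689) and by -1.03 in the A-H libraries (adjusted p = 0.0882), so neither set alone gave a call. Its partner NPC2 was not called, at 56.4 ± 18.7 and 48.9 ± 1.52 RPKM, 0.11 in log2 units (SE 0.26, adjusted p = 0.803 in limma).

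ASAH1, the acid ceramidase, averaged 3.66 ± 0.993 RPKM in AURKA and 6.03 ± 0.351 RPKM in control lines, -0.62 in log2 units (SE 0.18, adjusted p = 0.0344 in limma). The call was lost within the I-Z libraries (adjusted p = 0.125), without libraries A and D (adjusted p = 0.0632), and without any 1 control line (adjusted p 0.0966 to 0.132) or either NLS-AURKA clone (0.0518 and 0.0514). NEU1, the lysosomal sialidase, was at 13.1, 14.3 and 16.1 RPKM in the AURKA lines, against 20.5, 19.6 and 18.2 RPKM in NLS-Empty, NES-Empty and Empty. It fell in both letter sets, by 0.43 in log2 units (SE 0.093, adjusted p = 0.0116 in limma) over all libraries, by 0.35 in the I-Z libraries (adjusted p = 0.0159) and by 0.64 in the A-H libraries (adjusted p = 0.0483). Without NES-Empty or NLS-Empty its adjusted p was 0.0645 and 0.0785.

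SCARB2, the membrane receptor that carries glucocerebrosidase to lysosomes, rose. It was at 4.90, 6.05 and 7.01 RPKM in the AURKA lines, against 3.997, 4.02 and 4.71 RPKM in NLS-Empty, NES-Empty and Empty. The arms did not overlap, with a difference of 0.42 in log2 units (SE 0.11, adjusted p = 0.0295 in limma), and 0.44 in the I-Z libraries (adjusted p = 0.0291). Leaving out Empty, NES-Empty, NLS-Empty or WT-AURKA c1 ended the call, with adjusted p of 0.0610, 0.131, 0.132 and 0.0548. GLA had the highest positive difference of the 35, 0.79, with no overlap of lines, but was not called (adjusted p = 0.0577; 10.7 ± 3.62 and 5.64 ± 0.752 RPKM). FUCA1, which removes fucose from glycoproteins, was at 18.5 ± 5.21 and 30.2 ± 5.44 RPKM, -0.74 (adjusted p = 0.0570), and was called in the I-Z libraries (-0.64, adjusted p = 0.0452). Guide, passage and clonal derivation, which cannot be told apart from AURKA cDNA here, stand beside each of these differences.

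**Figure D2:**
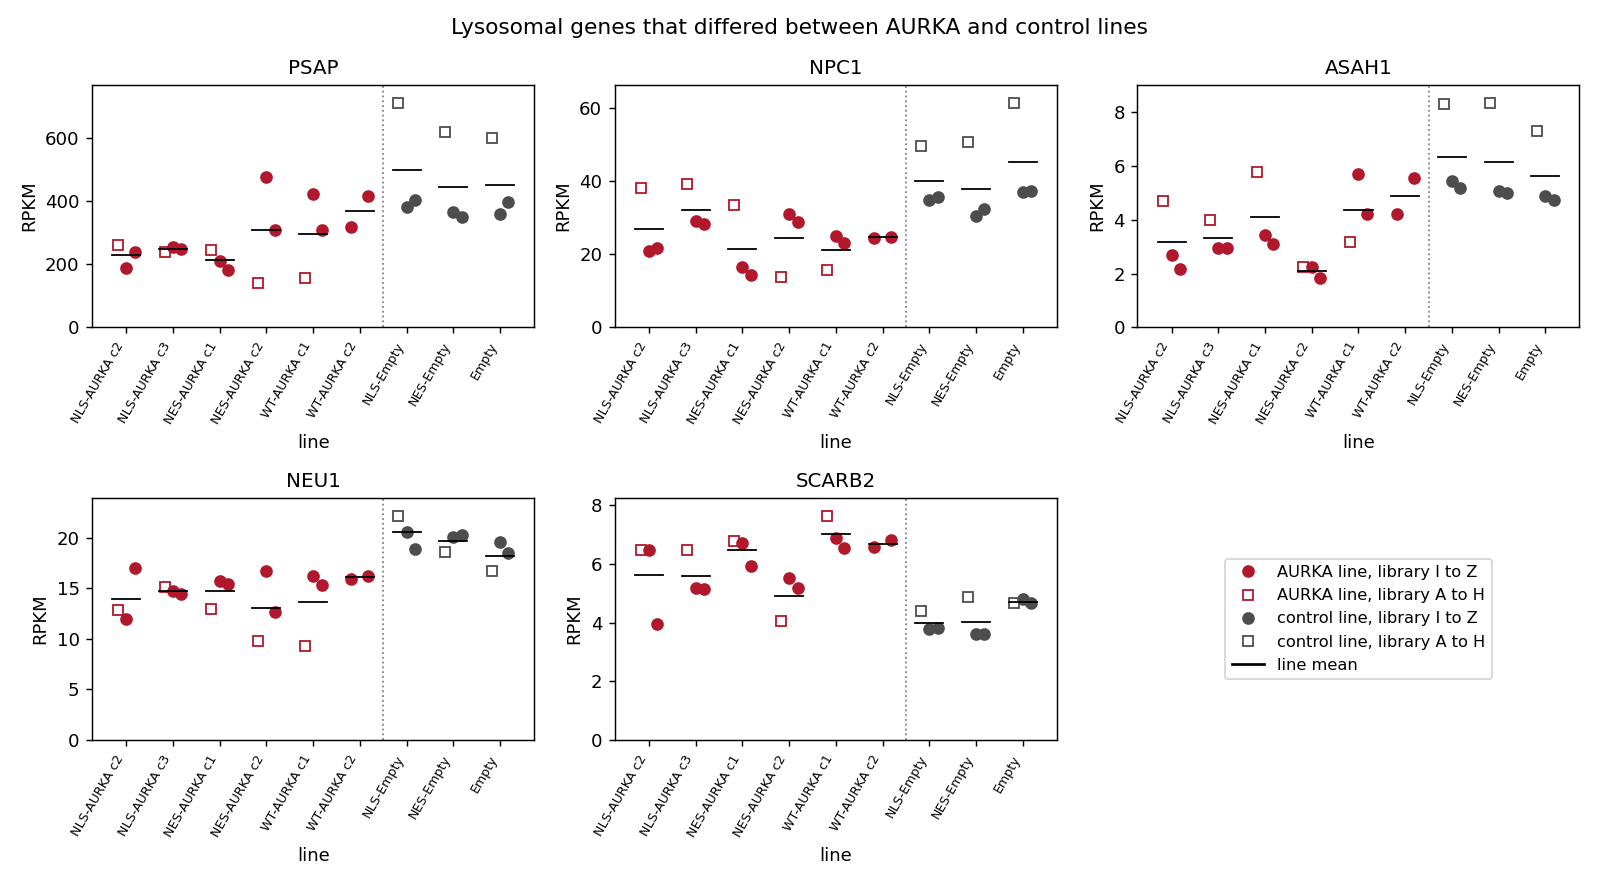
RPKM of the 5 genes called between AURKA and control lines in each library, by line, with open squares for A-H libraries, filled circles for I-Z libraries and a bar for the line mean. PSAP in the A-H libraries lies at 140.0 to 262 RPKM in AURKA lines and 598 to 710.1 RPKM in control lines, while the I-Z values of the arms overlap.

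The nuclear signal was set against the export signal and against no added signal. NLS-AURKA against NES-AURKA called 14 of the 35 genes, 4 higher and 10 lower, where 33.2% of all genes were called, 19.1% higher and 14.1% lower. NLS-AURKA against WT-AURKA called 15, 3 higher and 12 lower, where 36.1% of all genes were called, 18.7% higher and 17.4% lower. The median log2 differences of the 35 were -0.081 and -0.34, against 0.046 and 0.01 over all genes. The comparisons share the NLS-AURKA lines, so they are given side by side and not as support for each other. In the I-Z libraries 4 genes were higher and 12 lower against NES-AURKA, where 20.5% of all genes were called higher and 18.8% lower, and 4 were higher and 16 lower against WT-AURKA, where 21.2% were called higher and 18.9% lower. In the A-H libraries 3 were higher and 0 lower against NES-AURKA, where 8.21% of all genes were called, and 0 were called either way by limma against WT-AURKA, which is library D alone there and where 3.4% were called. Without NLS-AURKA c2 the count against NES-AURKA was 9, and without either NES-AURKA clone the count against WT-AURKA was 24. Over all alternative runs the calls among all genes ran from 979 to 6032 against NES-AURKA and from 405 to 6257 against WT-AURKA. In the fits first given they were 4180 and 4547. The counts of 9 and 24 are therefore not read as a result about the lysosomal genes.

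MAN2B1, which trims mannose from glycoproteins, had the largest difference of the 35 in both comparisons. MAN2B1 was at 16.4, 13.1 and 12.3 RPKM in the libraries of NLS-AURKA c2 and 17.0, 13.4 and 13.1 RPKM in those of c3, against 3.03 to 8.06 RPKM in the 6 NES-AURKA and 3.19 to 5.71 RPKM in the 5 WT-AURKA libraries. Every NLS-AURKA library exceeded every other library of the study, whose highest value was 8.61 RPKM in library G of NLS-Empty. The difference was 1.61 in log2 units (SE 0.13, adjusted p = 9.91e-05 in limma) from NES-AURKA and 1.68 in log2 units (SE 0.13, adjusted p = 7.68e-05 in limma) from WT-AURKA. It was 1.74 and 1.67 in the I-Z libraries (adjusted p = 2.49e-05 and 2.89e-05), and 1.36 and 1.40 in the A-H libraries (adjusted p = 0.0319 and 0.0643).

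MCOLN1, the lysosomal calcium channel whose promoter stretch is printed above, also rose. MCOLN1 was at 5.80, 6.80 and 8.06 RPKM in the libraries of NLS-AURKA c2 and 6.30, 6.18 and 6.28 RPKM in those of c3, against 3.53 to 4.52 RPKM in the 6 NES-AURKA and 3.61 to 4.77 RPKM in the 5 WT-AURKA libraries. The NLS-AURKA libraries did not overlap with any other of the 26, and the difference was 0.61 in log2 units (SE 0.084, adjusted p = 0.000888 in limma) from NES-AURKA and 0.54 in log2 units (SE 0.084, adjusted p = 0.00137 in limma) from WT-AURKA. Within the letter sets it was 0.62 and 0.54 in I-Z, 0.57 and 0.61 in A-H, called in each but the last (adjusted p = 0.0670).

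GM2A, the activator that presents the ganglioside GM2 to hexosaminidase, rose as well. GM2A was at 17.3, 12.3 and 8.69 RPKM in the libraries of NLS-AURKA c2 and 11.8, 8.57 and 8.49 RPKM in those of c3, against 4.64 to 7.71 RPKM in the 6 NES-AURKA and 4.28 to 7.91 RPKM in the 5 WT-AURKA libraries. All NLS-AURKA libraries lay above the others, and c2 lay above c3 in both letter sets and in the mean, though limma did not call the clones apart. The difference was 0.76 in log2 units (SE 0.16, adjusted p = 0.00722 in limma) from NES-AURKA and 0.98 in log2 units (SE 0.16, adjusted p = 0.00185 in limma) from WT-AURKA, and without NLS-AURKA c2 the first had an adjusted p of 0.0672. In the A-H libraries alone GM2A differed by 0.78 from WT-AURKA, which is library D alone there, and was not called. HEXA, the subunit of hexosaminidase that degrades GM2, went the other way, at 3.55 ± 0.191 RPKM in NLS-AURKA, 5.01 ± 0.0616 RPKM in NES-AURKA and 6.28 ± 0.844 RPKM in WT-AURKA (SD, n = 2 lines each). It fell by 0.38 in log2 units (SE 0.11, adjusted p = 0.0238 in limma) against NES-AURKA and by 0.66 in log2 units (SE 0.11, adjusted p = 0.00165 in limma) against WT-AURKA, but the first call was lost without NES-AURKA c1, NLS-AURKA c2 or NLS-AURKA c3 (adjusted p = 0.0506, 0.135 and 0.0683). In the A-H libraries HEXA differed by -0.14 from NES-AURKA and -0.13 from WT-AURKA (adjusted p = 0.618 and 0.736).

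PPT1 averaged 38.3 ± 0.348 RPKM in NLS-AURKA, 24.3 ± 2.64 RPKM in NES-AURKA and 30.6 ± 2.14 RPKM in WT-AURKA. It rose by 0.61 in log2 units (SE 0.10, adjusted p = 0.00232 in limma) against NES-AURKA, while against WT-AURKA the difference was 0.27 in log2 units (SE 0.10, adjusted p = 0.0692 in limma), called in the I-Z libraries only (0.46, adjusted p = 0.00683). Compared within the letter sets, both NLS-AURKA clones lay above the other AURKA lines in each, at 21.8 and 23.7 RPKM against 16.2 to 19.3 RPKM in A-H, and at 41.8 to 48.5 RPKM against 25.3 to 34.5 RPKM in I-Z.

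**Figure D3:**
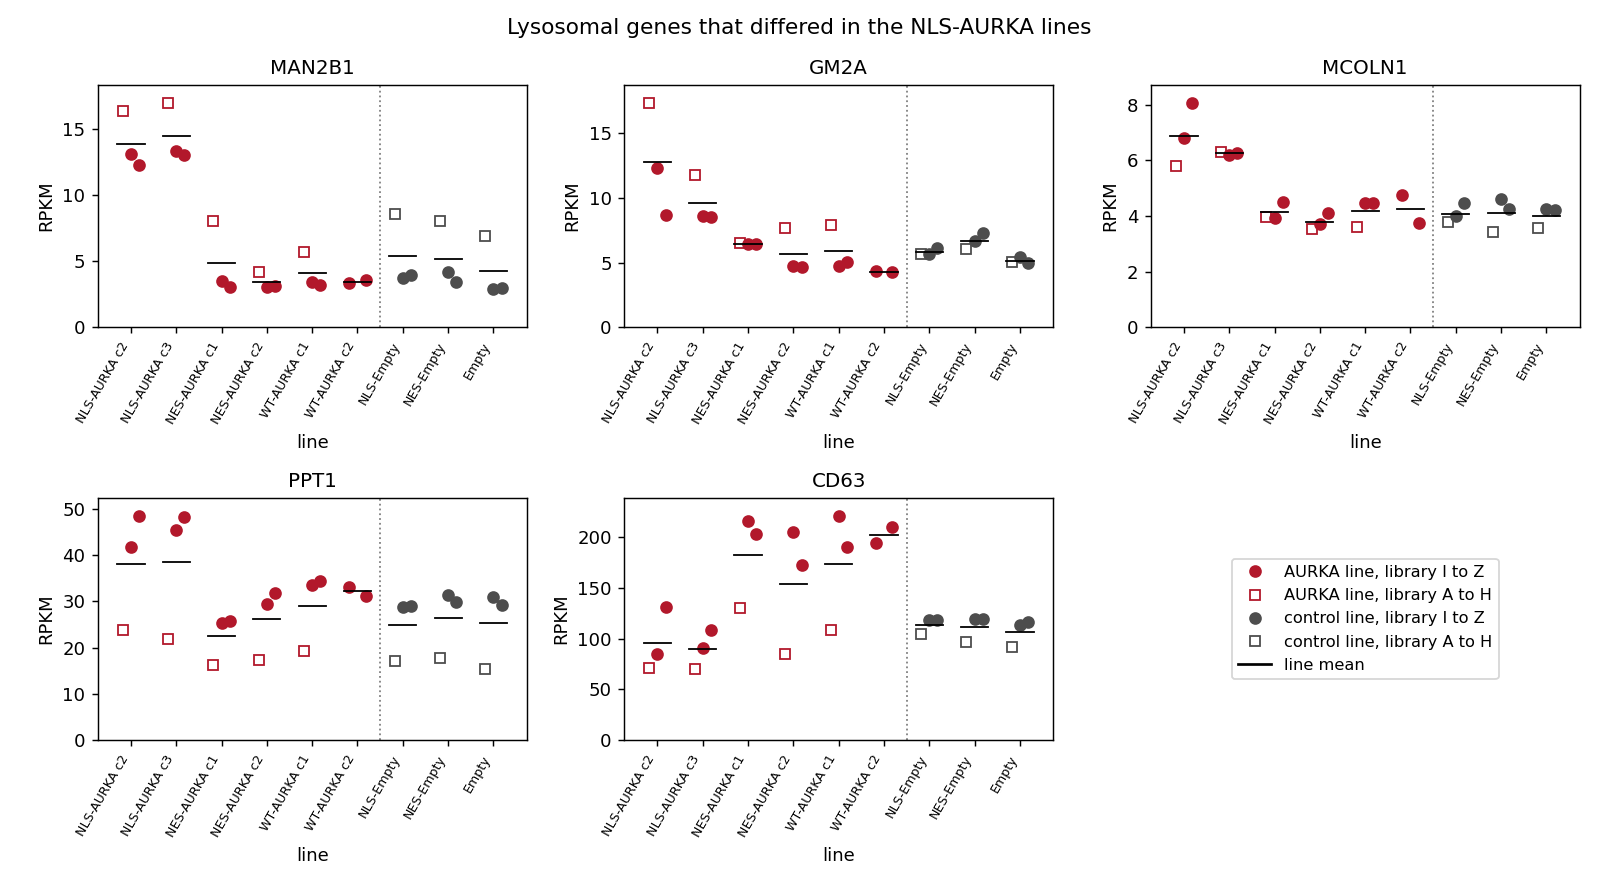
RPKM of MAN2B1, GM2A, MCOLN1, PPT1 and CD63 in each library, by line, with open squares for A-H libraries, filled circles for I-Z libraries and a bar for the line mean. MAN2B1, GM2A and MCOLN1 are highest in the 6 NLS-AURKA libraries, and the PPT1 and CD63 squares lie below the circles in every line that has a square.

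The genes that fell furthest in NLS-AURKA were mostly X-linked. All 5 X-linked genes of the 35, LAMP2, GLA, IDS, ATP6AP1 and TFE3, fell against NES-AURKA and against WT-AURKA. LAMP2, a glycoprotein of the lysosomal membrane that serves autophagy, was at 20.1, 23.4 and 19.4 RPKM in NLS-AURKA c2 and 20.3, 24.9 and 27.0 RPKM in c3, 23.5, 52.3 and 50.7 RPKM in NES-AURKA c1, 27.2, 45.4 and 42.2 RPKM in NES-AURKA c2, 36.0, 54.9 and 48.4 RPKM in WT-AURKA c1, 50.03 and 54.6 RPKM in WT-AURKA c2, and 22.7 to 29.5 RPKM in the 9 control libraries. The NLS-AURKA values lay within or below the range of the controls and those of the other clones above them, except library F of NES-AURKA c1 and library A of NES-AURKA c2, which lay among the controls. The difference was -0.76 in log2 units (SE 0.11, adjusted p = 0.000984 in limma) from NES-AURKA and -1.10 in log2 units (SE 0.11, adjusted p = 0.000161 in limma) from WT-AURKA.

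IDS averaged 15.2 ± 1.69 RPKM in NLS-AURKA, 36.5 ± 8.65 RPKM in NES-AURKA and 38.6 ± 0.275 RPKM in WT-AURKA (SD, n = 2 lines each), against 21.7 ± 1.63 RPKM in control lines (n = 3). It fell by 1.23 in log2 units (SE 0.15, adjusted p = 0.000488 in limma) against NES-AURKA and 1.34 in log2 units (SE 0.15, adjusted p = 0.000286 in limma) against WT-AURKA. GLA averaged 6.33 ± 0.0595, 11.4 ± 0.446 and 14.3 ± 0.464 RPKM in NLS-AURKA, NES-AURKA and WT-AURKA, and 5.64 ± 0.752 RPKM in control lines, and fell by 0.69 in log2 units (SE 0.12, adjusted p = 0.00272 in limma) against NES-AURKA and 1.08 in log2 units (SE 0.12, adjusted p = 0.000298 in limma) against WT-AURKA. In GLA too, library F of NES-AURKA c1 held 4.01 RPKM, against 14.7 and 14.5 RPKM in S and T of the same line. The libraries of this 1 line thus spread wider than the group means lay apart.

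ATP6AP1, an accessory subunit that assembles the proton pump, averaged 7.62 ± 0.326 RPKM in NLS-AURKA, 16.0 ± 1.11 in NES-AURKA, 17.98 ± 1.19 in WT-AURKA and 11.9 ± 0.785 RPKM in control lines. It fell by 0.96 in log2 units (SE 0.10, adjusted p = 0.000264 in limma) against NES-AURKA and 1.14 in log2 units (SE 0.10, adjusted p = 0.000109 in limma) against WT-AURKA, and it was the one X-linked gene of the 5 whose NLS-AURKA libraries, 6.75 to 8.44 RPKM, all lay below the 9.45 to 16.0 RPKM of the control libraries. TFE3 averaged 9.88 ± 0.238, 17.1 ± 1.15, 23.9 ± 0.346 and 10.1 ± 0.889 RPKM in the same order of groups. It fell by 0.71 in log2 units (SE 0.10, adjusted p = 0.000849 in limma) against NES-AURKA and 1.19 in log2 units (SE 0.10, adjusted p = 7.87e-05 in limma) against WT-AURKA. TFEB, which was not tested, was at 0.310 ± 0.00178, 0.513 ± 0.0459, 0.444 ± 0.0688 and 0.299 ± 0.0539 RPKM. In the A-H libraries alone none of the 5 was called in either comparison, with adjusted p of 0.0505 to 0.456 and differences of -0.31 to -1.27, and in the I-Z libraries alone all 5 were called in both.

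**Figure D4:**
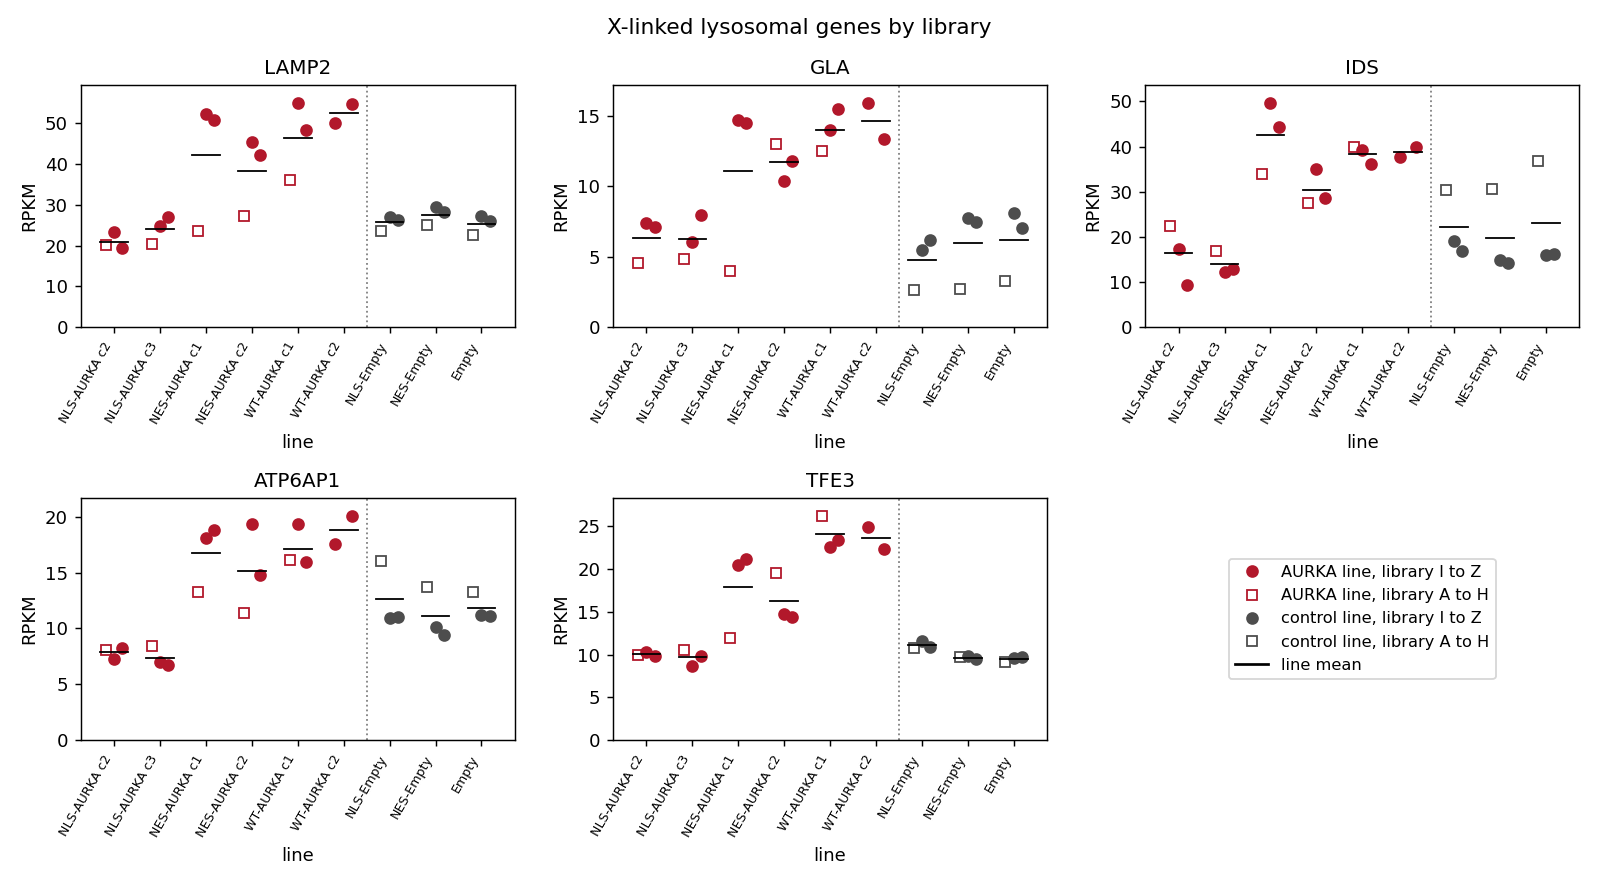
RPKM of the 5 X-linked genes in each library, by line, with open squares for A-H libraries, filled circles for I-Z libraries and a bar for the line mean. In the I-Z libraries the NES-AURKA and WT-AURKA clones lie above NLS-AURKA and the control lines in all 5 genes, and the square of NES-AURKA c1 (library F) lies far below its circles in LAMP2, GLA and TFE3.

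The same direction was seen over chromosome X. Of its 380 tested genes 56.1% were called lower in NLS-AURKA than in NES-AURKA, with a median of -0.39, and 53.7% lower than in WT-AURKA, with a median of -0.48. Against the control libraries of the same letter set, the median over X genes was -0.085 to 0.10 in the 6 NLS-AURKA libraries and 0.59 to 0.64 in the 5 WT-AURKA libraries. In NES-AURKA c1 it was 0.69 and 0.65 in S and T but 0.031 in F, and in NES-AURKA c2 it was 0.53, 0.35 and 0.36. The part that this shift of the chromosome has in the 5 lysosomal genes was not tested.

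Tested genes next to each member were compared in genome order, 10 on either side where the chromosome holds them (order from RefSeq). Around the 5 X-linked genes the median of the neighbours was -0.83 to -0.40 against NES-AURKA and -1.03 to -0.63 against WT-AURKA, and each of the 5 lay below its own neighbours' median. MAN2B1 and MCOLN1 both lie on chromosome 19, whose 789 tested genes had medians of 0.015 and 0.0086. The 20 neighbours of MAN2B1 had medians of 0.39 and 0.35 with 0 below zero in either comparison, and those of MCOLN1 0.32 and 0.44 with 3 and 2 below zero. MAN2B1 rose further than the highest of its neighbours (0.93 and 0.88), and MCOLN1 lay within the range of its own. The 19 neighbours of LAMP1 on chromosome 13 all lay below zero against WT-AURKA (median -0.42). The part of these neighbourhoods in the results was not tested.

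**Figure D5:**
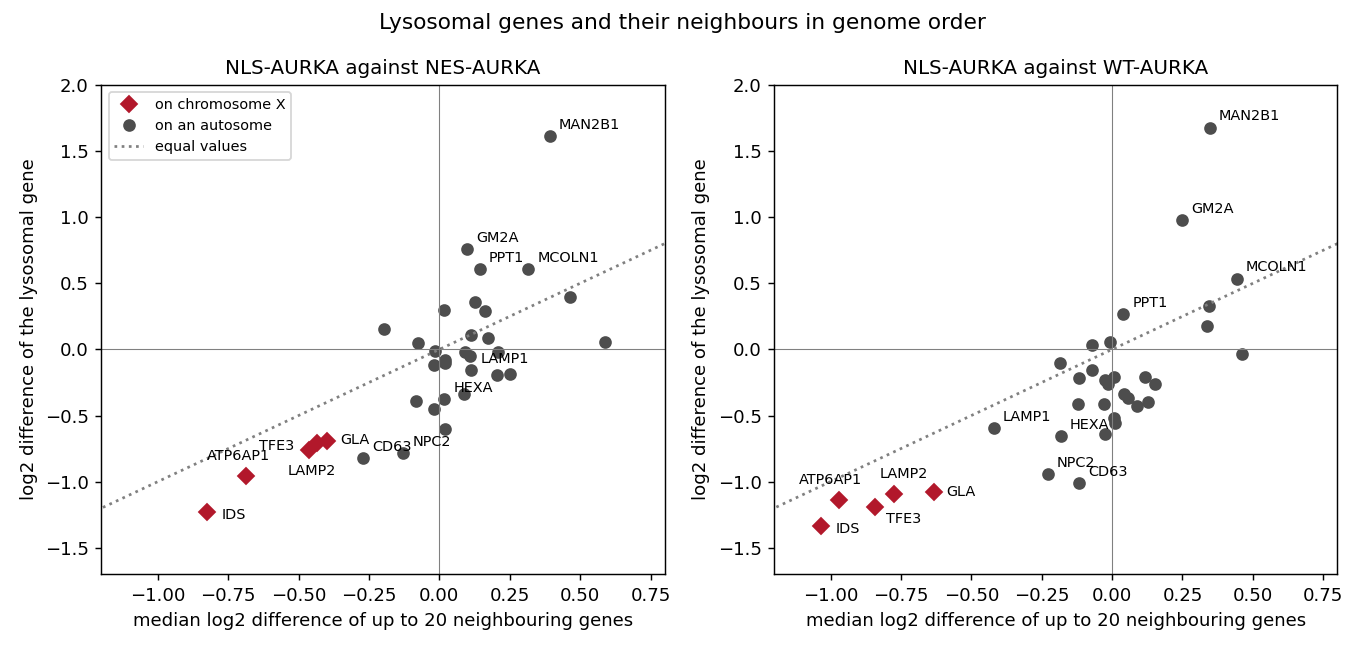
Log2 difference of each tested lysosomal gene (vertical) against the median log2 difference of its neighbours in genome order (horizontal), for NLS-AURKA against NES-AURKA (left) and NLS-AURKA against WT-AURKA (right), with red diamonds for chromosome X, grey circles for autosomes and a dotted line of equal values. The 5 diamonds sit at the lower left, and MAN2B1 stands highest at 1.61 and 1.68.

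Among autosomal genes, CD63 and NPC2 fell furthest. CD63 averaged 92.7 ± 4.37 RPKM in NLS-AURKA, 169 ± 20.4 RPKM in NES-AURKA and 188 ± 20.3 RPKM in WT-AURKA (SD, n = 2 lines each), against 111 ± 3.47 RPKM in control lines. It fell by 0.82 in log2 units (SE 0.13, adjusted p = 0.00204 in limma) against NES-AURKA and 1.01 in log2 units (SE 0.13, adjusted p = 0.000670 in limma) against WT-AURKA. NPC2 averaged 34.9 ± 0.150, 63.7 ± 15.6 and 70.6 ± 8.13 RPKM in the 3 groups and 48.9 ± 1.52 RPKM in control lines, and fell by 0.78 in log2 units (SE 0.18, adjusted p = 0.00991 in limma) against NES-AURKA and 0.94 in log2 units (SE 0.18, adjusted p = 0.00377 in limma) against WT-AURKA. Library D of WT-AURKA c1 and library A of NES-AURKA c2 held 33.5 and 28.9 RPKM of NPC2, against NLS-AURKA values of 30.7 to 38.7 RPKM. In the A-H libraries NPC2 differed by -0.42 and -0.04 (adjusted p = 0.490 and 0.969) and CD63 by -0.56 and -0.60 (adjusted p = 0.153 and 0.229). Against NES-AURKA the NPC2 call was lost without NLS-AURKA c2 or c3 (adjusted p = 0.0598 and 0.0551).

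Of the other genes with a printed promoter stretch, CLN3 fell in NLS-AURKA in both comparisons, and LAMP1 and ATP6V0D1 against WT-AURKA. LAMP1, a main glycoprotein of the lysosomal membrane, averaged 25.7 ± 1.28 RPKM in NLS-AURKA and 39.2 ± 0.0614 RPKM in WT-AURKA, a fall of 0.59 (SE 0.15, limma adjusted p = 0.0130), and 28.8 ± 0.267 RPKM in NES-AURKA (-0.16, adjusted p = 0.457). Its call was lost without either WT-AURKA or either NLS-AURKA clone (adjusted p 0.0516 to 0.0767). CLN3, a membrane protein lost in juvenile Batten disease, was at 0.992 ± 0.0267, 1.51 ± 0.133 and 1.68 ± 0.0441 RPKM in NLS-AURKA, NES-AURKA and WT-AURKA, and fell by 0.34 in log2 units (SE 0.086, adjusted p = 0.0160 in limma) against NES-AURKA and 0.43 in log2 units (SE 0.086, adjusted p = 0.00486 in limma) against WT-AURKA. In the A-H libraries it differed by -0.094 and 0.029 (adjusted p = 0.735 and 0.945), and without NLS-AURKA c2 or c3 the call against NES-AURKA was lost (adjusted p = 0.0938 and 0.0610). ATP6V0D1 fell against WT-AURKA by 0.34 in log2 units (SE 0.11, adjusted p = 0.0338 in limma), but was not called in the I-Z libraries (-0.21, adjusted p = 0.108), without any 1 control line, without either NLS-AURKA clone or without WT-AURKA c2 (adjusted p 0.0542 to 0.193).

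GLB1, the lysosomal beta-galactosidase, averaged 11.4 ± 0.121 RPKM in NLS-AURKA, 15.3 ± 2.31 RPKM in NES-AURKA and 15.3 ± 1.38 RPKM in WT-AURKA, with 18.3 ± 0.736 RPKM in control lines. It fell by 0.39 in log2 units (SE 0.12, adjusted p = 0.0377 in limma) against NES-AURKA and 0.40 in log2 units (SE 0.12, adjusted p = 0.0320 in limma) against WT-AURKA, calls that each of the 3 control lines and each NLS-AURKA clone could end when left out (adjusted p 0.0502 to 0.189, with NES-AURKA c1 also ending the first and WT-AURKA c2 the second). In the A-H libraries GLB1 differed by -0.29 and -0.082 (adjusted p = 0.567985 and 0.919). Genes called in the I-Z libraries only were GAA and TPP1, lower in NLS-AURKA in both comparisons, and IDUA, ASAH1 and FUCA1, lower against WT-AURKA. TPP1 differed there by -0.63 and -0.85 (adjusted p = 0.00331 and 0.000760), and by -0.086 and 0.11 in the A-H libraries (adjusted p = 0.928 and 0.930).

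NES-AURKA against WT-AURKA called 1 of the 35 genes, which was lower, where 4.87% of all genes were called, 1.56% higher and 3.3% lower. TFE3 was at 17.9 and 16.3 RPKM in the NES-AURKA clones, against 24.1 and 23.6 RPKM in the WT-AURKA clones. It fell by 0.49 in log2 units (SE 0.10, adjusted p = 0.0284 in limma), with -0.40 in the I-Z libraries (adjusted p = 0.177). Without NES-AURKA c1 the count was 12, all lower, and without NES-AURKA c2 it was 5. Calls among all genes moved too, from 0 to 2409 over all alternative runs, against 613 in the fit first given. The counts of 12 and 5 are therefore not read as a result about the lysosomal genes. The TFE3 call was lost without Empty, NES-Empty, either WT-AURKA or either NLS-AURKA clone (adjusted p 0.0565 to 0.155). The highest and lowest of the others were GM2A (0.22, adjusted p = 0.444) and FUCA1 (-0.85, adjusted p = 0.0553). FUCA1 and ASAH1 were the 2 genes called in the I-Z libraries, both lower, where 5.11% of all genes were called, 2.27% higher and 2.84% lower (-0.67 and -0.71, adjusted p = 0.0436 and 0.0359).

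Each pair of clones was also compared with the control line of the same signal, and a gene was called where both clones passed in the same direction. In NLS-AURKA against NLS-Empty, 6 of the 35 were called, 3 higher and 3 lower, where 13.4% of all genes were, 7.47% higher and 5.91% lower. The differences of c2 and c3 were 1.28 (SE 0.34, adjusted p = 0.0105) and 1.33 (SE 0.34, adjusted p = 0.00855) for MAN2B1, 0.63 (SE 0.13, adjusted p = 0.00132) and 0.52 (SE 0.13, adjusted p = 0.00682) for MCOLN1 and 0.96 (SE 0.20, adjusted p = 0.00211) and 0.62 (SE 0.20, adjusted p = 0.0445) for GM2A. The lower genes were FUCA1, with -1.09 (SE 0.29, adjusted p = 0.0105) and -0.98 (SE 0.29, adjusted p = 0.0232), ATP6AP1, with -0.61 (SE 0.19, adjusted p = 0.0308) and -0.69 (SE 0.19, adjusted p = 0.0162), and GLB1, with -0.67 (SE 0.22, adjusted p = 0.0389) and -0.71 (SE 0.22, adjusted p = 0.0313). Rescaling without ribosomal RNA ended the calls of MAN2B1, GM2A and ATP6AP1 (adjusted p = 0.0815, 0.250 and 0.0919). MCOLN1 kept its call in each alternative run. Leaving out 1 library ended the others: MAN2B1 without M or N of NLS-Empty (adjusted p = 0.0576 and 0.0548), FUCA1 without any 1 library of NLS-Empty or B of c3 (adjusted p 0.0509 to 0.120), GLB1 without any 1 of NLS-Empty, H or W of c2 or B of c3 (adjusted p 0.0698 to 0.185), and ATP6AP1 without G of NLS-Empty, H or W of c2 or Y or Z of c3 (adjusted p 0.0555 to 0.168). GM2A lost its call without any 1 of NLS-Empty or NLS-AURKA c3, without W of c2, and without several libraries of other lines, which share the estimate of spread (adjusted p 0.0503 to 0.188). The I-Z libraries gave 5 higher and 9 lower, where 31.9% of all genes were called, 15.6% higher and 16.3% lower.

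In WT-AURKA against Empty, 2 of the 35 were called, both higher, where 7.39% of all genes were, 4.23% higher and 3.16% lower. TFE3 was at 26.3, 22.6 and 23.5 RPKM in c1 and 24.9 and 22.3 RPKM in c2, against 9.20, 9.66 and 9.75 RPKM in Empty. Every WT-AURKA library held more than every Empty library, with differences of 1.25 (SE 0.16, adjusted p = 2.55e-05) and 1.22 (SE 0.18, adjusted p = 0.000170). LAMP2 differed by 0.83 (SE 0.24, adjusted p = 0.0301) and 1.02 (SE 0.27, adjusted p = 0.0229), a call lost without any 1 library of Empty or of either clone other than D (adjusted p 0.0592 to 0.215). In NES-AURKA against NES-Empty, TFE3 was higher and FUCA1 lower, 2 of 35, where 5.85% of all genes were called, 2.56% higher and 3.3% lower. TFE3 differed by 0.78 (SE 0.16, adjusted p = 0.00226) and 0.68 (SE 0.16, adjusted p = 0.00959) and FUCA1 by -0.91 (SE 0.29, adjusted p = 0.0372) and -1.54 (SE 0.29, adjusted p = 0.00133). Without library A of NES-AURKA c2 the TFE3 call was lost (adjusted p = 0.0505), and the FUCA1 call was lost without any 1 library of NES-Empty or NES-AURKA c1. The I-Z libraries gave 13 higher and 1 lower for WT-AURKA, where 15.2% of all genes were called higher and 19.3% lower. They gave 9 higher and 3 lower for NES-AURKA, where 10.8% of all genes were called higher and 11.3% lower.

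Over all 26 libraries, the tested genes called in none of these comparisons, nor between clones, were the hydrolases GAA, TPP1, GUSB, IDUA, LIPA and ARSB and the pump subunits ATP6V1A, ATP6V1B2 and ATP6V1H. GUSB, the beta-glucuronidase, ran from 7.39 RPKM in NES-AURKA c2 to 10.1 RPKM in WT-AURKA c1. LIPA, the acid lipase of cholesteryl esters, ran from 11.7 RPKM in NLS-AURKA c2 to 17.4 RPKM in NES-AURKA c2. ARSB, a sulfatase of dermatan sulfate, ran from 2.10 RPKM in NES-Empty to 3.08 RPKM in NLS-AURKA c2, and IDUA, which acts on the same chains, from 0.442 RPKM in NES-AURKA c2 to 1.43 RPKM in NLS-Empty. All 6 hydrolases were called over the 9 lines in the I-Z libraries, as were 75.8% of all genes (F test in limma, adjusted p 1.28e-05 to 0.0298) and not in all 26 libraries (adjusted p 0.223 to 1.00).

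The changes from matched controls were then compared with each other. NLS-AURKA and NES-AURKA differed in 6 of the 35 genes, where 7.15% of all genes differed, and NLS-AURKA and WT-AURKA in 7, where 8.16% did. MAN2B1, MCOLN1, IDS, ATP6AP1 and TFE3 were called in both, GM2A in the first and LAMP1 and LAMP2 in the second. NES-AURKA and WT-AURKA differed in 0 by limma, where 0.445% of all genes did. At an unadjusted p under 0.05 in limma were 3 of the 35 and 6.29% of all genes. The 3 counts in the I-Z libraries were 16 of the 35, where 34.2% of all genes differed, 22, where 35.4% did, and 4, where 7.25% did.

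The clones of 1 construct were compared in the same fit. NES-AURKA c2 against c1 called 4 of the 35, where 4.54% of all genes were, and all 4 were hydrolases that were lower in c2. NAGLU, which removes N-acetylglucosamine from heparan sulfate, was at 1.02, 2.52 and 2.82 RPKM in c2 against 5.29, 6.96 and 6.86 RPKM in c1. The clones did not overlap, with a difference of -1.29 (SE 0.22, limma adjusted p = 0.00150), and -1.11 in the I-Z libraries (adjusted p = 0.000591). MANBA, the beta-mannosidase, differed by -0.83 (adjusted p = 0.00195), the acid sphingomyelinase SMPD1 by -0.71 (adjusted p = 0.00590) and the heparan sulfatase SGSH by -0.60 (adjusted p = 0.00278). In the I-Z libraries 15 were called, where 26.1% of all genes were. Of these NPC1, PSAP, LIPA and PPT1 were higher in c2, by 0.91, 0.96, 0.86 and 0.25, and the other 11 lower, among them IDS, GLA, TFE3 and GM2A, by -0.55, -0.37, -0.48 and -0.39 (adjusted p 1.09e-05 to 0.0497 for these 8). Between the WT-AURKA clones and between the NLS-AURKA clones limma called 0 of the 35 and 0 of all genes, and 0 of the 35 had an unadjusted p under 0.05 in either, with 57 and 114 of 12589 genes below it. In the I-Z libraries the WT-AURKA clones again differed in 0 of the 35 and 0 of all genes by limma, and the NLS-AURKA clones in 1, NPC1, higher in c3 by 0.41 (adjusted p = 0.0306), where 1.42% of all genes differed. The NES-AURKA means of the genes called between its clones average clones that differed.

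Other genes of the lysosome were counted for comparison, with the share of all genes called given above. Of 33 other hydrolases and activators 4 were higher and 6 lower in NLS-AURKA than in NES-AURKA, 2 were higher and 10 lower than in WT-AURKA, and 0 were higher and 5 lower in AURKA than in control lines. FUCA2, a secreted fucosidase, was lower in NLS-AURKA than in WT-AURKA (23.3 against 51.2 RPKM, log2 difference -1.12, adjusted p = 0.00109), and PPT2, a thioesterase like PPT1, was higher than in NES-AURKA (11.6 against 6.25 RPKM, log2 difference 0.80, adjusted p = 0.00335).

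Of 39 other membrane proteins and transporters 3 were higher and 12 lower in NLS-AURKA than in NES-AURKA, 5 were higher and 17 lower than in WT-AURKA, and 3 were higher and 4 lower in AURKA than in control lines. MCOLN2, a channel of the same family as MCOLN1, was higher in NLS-AURKA than in NES-AURKA (2.60 against 0.920 RPKM, log2 difference 0.93, adjusted p = 0.000553), while OSTM1, which partners a chloride transporter, was lower than in WT-AURKA (6.02 against 16.8 RPKM, log2 difference -1.34, adjusted p = 0.000918), and LAPTM5 lower than in NES-AURKA (10.6 against 39.4 RPKM, log2 difference -1.77, adjusted p = 0.00143). Of 18 other proton pump subunits 2 were higher and 4 lower in NLS-AURKA than in NES-AURKA, 3 were higher and 6 lower than in WT-AURKA, and 1 was higher and 0 lower in AURKA than in control lines. The assembly factor VMA21, which is X-linked like ATP6AP1, was lower in NLS-AURKA than in NES-AURKA (13.1 against 27.0 RPKM, log2 difference -0.95, adjusted p = 0.000290), and the membrane-sector subunit ATP6V0A2 was higher (5.10 against 2.60 RPKM, log2 difference 0.75, adjusted p = 0.000563).

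Of 24 regulators of lysosome gene expression and mTORC1 docking 4 were higher and 3 lower in NLS-AURKA than in NES-AURKA, 3 were higher and 7 lower than in WT-AURKA, and 3 were higher and 4 lower in AURKA than in control lines. MITF, a relative of TFEB and TFE3, was lower in AURKA than in control lines (6.07 against 11.9 RPKM, log2 difference -0.89, adjusted p = 0.00160), and RRAGD, a Rag GTPase that docks mTORC1, was higher (8.69 against 4.94 RPKM, log2 difference 0.70, adjusted p = 0.0358). RHEB, the GTPase that activates mTORC1, was lower in NLS-AURKA than in WT-AURKA (47.8 against 92.6 RPKM, log2 difference -0.996, adjusted p = 0.00152). Of 24 genes that sort enzymes to the lysosome 3 were higher and 6 lower in NLS-AURKA than in NES-AURKA and 2 were higher and 5 lower than in WT-AURKA. GNPTAB, which makes the mannose 6-phosphate tag, was higher in NLS-AURKA than in NES-AURKA (6.37 against 2.85 RPKM, log2 difference 0.93, adjusted p = 0.000180), and IGF2R, a receptor of that tag, was lower than in WT-AURKA (15.6 against 32.3 RPKM, log2 difference -1.02, adjusted p = 0.000517). In the same comparisons, of 24 fusion and positioning genes 4 were higher and 3 lower, and 1 was higher and 6 lower, while of 24 autophagy genes 2 were higher and 4 lower, and 1 was higher and 5 lower. Between NES-AURKA and WT-AURKA the 7 lists had from 0 to 1 higher and 0 to 3 lower genes each.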

How the data were processed

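RNA from 9 lines was sequenced as 26 poly(A) libraries from 500 ng of total RNA each. The authors deposited 1 table of RPKM values per gene and library. Per the submitters' processing notes HISAT2, SAMtools, Partek and the build hg19 were used, with versions not given in the sources used here. Lines were grouped by the labels' titles and genotypes, and the letters A to Z are those of the titles.

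Deposited RPKM values were turned into log2(RPKM + 1), a scale that understates the change of low genes. Genes with at least 1 RPKM in at least 2 libraries were fitted with limma 3.58.1 (R 4.3.3, moderated test with an intensity trend, two-sided), all 9 lines in each fit, so that they share 1 estimate of spread. The 4 comparisons between groups used line means with equal weight. Comparisons with matched controls, between clones, over 9 lines, and of differences used single libraries. P-values were adjusted by the Benjamini-Hochberg method over all 12589 genes (11717 in the I-Z and 11926 in the A-H libraries alone), with a threshold of 0.05. No library was dropped and no value imputed in the values first given. The fits were run on simulated data that held no difference between letter sets, so those runs do not show how the fits treat such a difference.

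The genes and lists were chosen with earlier results of these data known, and support nothing by their choice. Genes described singly are all those called, with the highest and lowest others. Of the other lists up to 3 genes per direction could be named. Some genes counted in those lists are not reported here by name. Promoter sequence and gene order came from RefSeq tables of GRCh38.p14, used by symbol, and no hg19 coordinate was used. Depth limits precision as the reads per kilobase given in the results show, and covers counting error only. Alternatives changed the pseudocount to 0.1, dropped the filter, rescaled without ribosomal RNA, took the I-Z libraries alone, modelled libraries with line as a random block or with the letter set as a covariate, and left out each line or library. The A-H libraries alone, and fits without A and D, without A, D and F or without X, were chosen after seeing the data.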

Additional observations from a re-analysis of the deposited data

Results flagged for a closer look

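Changes from the matched control line were compared between constructs, as the change of the 2 clones of one construct minus that of the other, in limma over single libraries. Between NLS-AURKA and NES-AURKA 6 of the 35 lysosomal genes differed at an adjusted p under 0.05, where 7.15% of all genes did. The difference was positive for MAN2B1, 1.57 (SE 0.41, adjusted p = 0.0226), GM2A, 0.92 (SE 0.25, adjusted p = 0.0285), and MCOLN1, 0.60 (SE 0.15, adjusted p = 0.0193). It was negative for IDS, -1.42 (SE 0.41, adjusted p = 0.0369), ATP6AP1, -1.13 (SE 0.23, adjusted p = 0.00455), and TFE3, -0.89 (SE 0.20, adjusted p = 0.00846).

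Between NLS-AURKA and WT-AURKA 7 differed, where 8.16% of all genes did. MAN2B1, with 1.39 (SE 0.42, adjusted p = 0.0455), and MCOLN1, with 0.52 (SE 0.16, adjusted p = 0.0471), were positive. TFE3, with -1.40 (SE 0.20, adjusted p = 0.000165), IDS, with -1.34 (SE 0.41, adjusted p = 0.0498), ATP6AP1, with -1.21 (SE 0.24, adjusted p = 0.00293), LAMP2, with -1.12 (SE 0.31, adjusted p = 0.0263), and LAMP1, with -0.98 (SE 0.24, adjusted p = 0.0128), were negative. Both comparisons use the NLS-AURKA and NLS-Empty lines. Between NES-AURKA and WT-AURKA limma called 0 of the 35, where 0.445% of all genes were called. At an unadjusted p under 0.05 there were 3 of the 35 and 6.29% of all genes. In the I-Z libraries the counts were 16, 22 and 4 of the 35 for the comparisons in the order given, where 34.2%, 35.4% and 7.25% of all genes differed.

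ATP6V1H in WT-AURKA c2 averaged 10.02 RPKM, apart from the other 5 AURKA lines, which lay between 8.01 and 8.75 RPKM. Its gap to the nearest line was 0.633 of the range of the 6, and chance gives such a gap in about 1 in 20 groups. All 37 genes were looked at in this way and ATP6V1H was the 1 found, which is no more than chance gives. WT-AURKA c2 is also the line with no library in the A-H set, and in each other line the A-H library held the lowest ATP6V1H value.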

How the results depend on the processing

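No paired analysis was possible because the labels give no replicate numbers shared between lines, but the letter set, which 8 of the 9 lines share, was fitted as a covariate, with its counts given below. The 45 single-gene calls were each recomputed under the alternatives, 1060 times in all, and kept direction and call in 909, lost the call in 150 and changed sign in 1 (CLN3 in NLS-AURKA against WT-AURKA, at 0.029 in the A-H libraries alone). MAN2B1 and MCOLN1 in NLS-AURKA against NES-AURKA, MCOLN1 in NLS-AURKA against NLS-Empty and TFE3 in WT-AURKA against Empty kept their calls in each alternative run. A pseudocount of 0.1, centring to 1 median, robust moderation and leaving out library X moved no count of lysosomal genes by over 1.5 times.

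Counts that moved further were as follows. With no filter, 3 genes were called between AURKA and control lines, 0 between NES-AURKA and WT-AURKA, and 1 each in WT-AURKA and NES-AURKA against their matched controls. Rescaling without ribosomal RNA gave 0 for NES-AURKA against WT-AURKA, and 4 for WT-AURKA and 3 for NLS-AURKA against matched controls. The I-Z libraries alone gave 2 for NES-AURKA against WT-AURKA, 14, 12 and 14 for NLS-AURKA, NES-AURKA and WT-AURKA against matched controls, and 32 over the 9 lines. A random block for line gave 9 between AURKA and control lines and 3 for NES-AURKA against WT-AURKA. The letter set as a covariate gave 11, 7 and 8 against matched controls, where 29.5%, 16.3% and 21.6% of all genes were called, and 26 over the 9 lines, where 66.2% were. The A-H libraries alone gave 3 between AURKA and control lines, 3 for NLS-AURKA against NES-AURKA, and 0 for NLS-AURKA and for NES-AURKA against WT-AURKA. Without A and D, 3 were called between AURKA and control lines, 3 for NES-AURKA against WT-AURKA, and 10 and 5 for NLS-AURKA and WT-AURKA against matched controls. Without A, D and F the counts were 2 for NES-AURKA against WT-AURKA, 10, 5 and 6 against matched controls, and 26 over the 9 lines. Leaving out 1 line gave 1 to 7 between AURKA and control lines, 9 to 20 for NLS-AURKA against NES-AURKA, 12 to 24 against WT-AURKA, and 0 to 12 for NES-AURKA against WT-AURKA. Leaving out 1 library gave 2 to 7, 1 to 2 and 1 to 3 for NLS-AURKA, NES-AURKA and WT-AURKA against matched controls, and 14 to 21 over the 9 lines. Calls among all genes moved as well, so the counts under single settings are not read as results about the lysosomal genes. Over all settings the calls among all genes ran from 902 to 3187 between AURKA and control lines. They ran from 3486 to 8877 over the 9 lines. For NLS-AURKA they ran from 979 to 6032 against NES-AURKA and from 405 to 6257 against WT-AURKA. NES-AURKA against WT-AURKA had 0 to 2409. Against matched controls they ran from 1254 to 3732, 473 to 2585 and 298 to 4040 for NLS-AURKA, NES-AURKA and WT-AURKA. The cause of these moves was not tested. Where a library was left out, fewer libraries were fitted. At the depth given, a gene near 1 RPKM rests on few reads, and its absence from a count does not show that it did not differ.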
